A study of Mus musculus with 48 samples.

Results

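Testis was set against liver, kidney and hypothalamus of the mouse, to describe which genes had more or less RNA in the male gonad than in 3 somatic tissues. The 3 testis RNA samples were 3 of the 24 RNA samples of the series and accounted for 6 of its 48 arrays. They were chosen by the tissue word in the array titles. Liver, kidney and hypothalamus had 6 RNA samples each, from male and female animals in equal number, and the 3 ovary samples were left out of the comparison. Every RNA was bought from Ambion and came from a pool of 10 mice, and each RNA sample was measured on 2 arrays. The labels give neither strain, age nor genotype, and name no treatment, allele or time point. A description in the labels says that hypothalamus was measured from total RNA and the other tissues from RNA selected for its poly(A) tail, whereas the field for the molecule reads total RNA for every sample. The type of RNA and the tissue therefore cannot be told apart between testis and hypothalamus. Nothing in the labels says that the 3 testis samples came from separate pools of animals, so the spread between them may be technical. The p-values and standard errors rest on a spread that all groups of tissue and sex share, most of whose samples are somatic. They do not measure the spread of the testis samples alone.

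Sperm are made in the seminiferous tubules of the testis. Spermatogonia divide by mitosis, spermatocytes go through meiosis, and the resulting round spermatids are reshaped into sperm with a condensed nucleus, an acrosome and a flagellum. Sertoli cells inside the tubules nurse the germ cells, and Leydig cells between the tubules make testosterone. In spermatids the histones are exchanged first for transition proteins and then for protamines, and transcription stops before the sperm is finished, so that many messages are stored and translated late. During meiosis the X and Y chromosomes are silenced in males.

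Values are the deposited array signals, in arbitrary units, scaled to a common trimmed mean and averaged over the 2 arrays of each sample. A log2 difference is the mean of the 3 testis samples minus the mean of the 3 somatic tissues, each tissue counting equally, on log2 of the signal plus 48.3 with its standard error (SE). The added 48.3 shrinks the difference of any gene that is dim on either side, and no detection calls were used, so a level near or below 48.3 was not told apart from background. Signals were not compared between genes. A gene was called when its adjusted p from limma was below 0.05 and its log2 difference was at least 1 in size, a 2-fold difference. The 2 arrays of a testis sample correlated at 0.978 to 0.989 over all probe sets, and the testis samples correlated with each other at 0.958 to 0.980. Testis samples correlated with liver at 0.556 to 0.616, with kidney at 0.611 to 0.674 and with hypothalamus at 0.578 to 0.623.

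Markers of spermatids and spermatocytes stood in the testis samples as their label says. The message of Tnp2, transition protein 2, gave signals of 16893, 17538 and 13589 in testis samples 1, 2 and 3. Across the samples of a tissue its lowest, median and highest signals were 2.60, 5.15 and 7.95 for liver, 3.50, 4.15 and 6.50 for kidney, and 3.80, 5.15 and 7.0 for hypothalamus. All testis samples were far above all somatic samples, none of which reached 48.3, and the log2 difference was 8.22 ± 0.08 (SE, adjusted p = 1.07e-23). With the somatic samples this dim, its size depends on the 48.3 added: it was 9.87 with 0.25 times that value and 6.34 with 4 times, where Ldhc stood above it at 6.42. Prm2, protamine 2, gave 20902, 20229 and 16741 in the testis samples. Its lowest, median and highest signals were 46.9, 74.0 and 147 for liver, 43.2, 58.0 and 110 for kidney, and 22.5, 34.6 and 86.7 for hypothalamus. Again no somatic sample came near the testis samples, and the log2 difference was 7.54 ± 0.18 (SE, adjusted p = 2.17e-18). Ldhc, the lactate dehydrogenase subunit of meiotic and later germ cells, gave 22286, 21609 and 19158 in testis. The same gene read 70.9, 90.1 and 113 for liver, 38.9, 55.2 and 77.3 for kidney, and 20.6, 22.7 and 30.2 for hypothalamus, as lowest, median and highest. The groups did not overlap, with a log2 difference of 7.72 ± 0.12 (SE, adjusted p = 3.18e-21).

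Of 10615 genes tested, 1906 (18.0%) were higher in testis than in the mean of the 3 tissues and 2599 (24.5%) were lower. Against liver alone 2271 genes were higher (21.4%) and 2249 lower (21.2%). Against kidney 2019 were higher (19.0%) and 2446 lower (23.0%). Against hypothalamus 1956 were higher (18.4%) and 2701 lower (25.4%). Higher calls were thus 42.0% of the calls against hypothalamus, and this split depended on the scaling, since it was 58.9% when every array was centred on its median. Over all probe sets the median log2 difference from hypothalamus was -0.29 in the main scaling, 0.13 with median centring and 0.00 with quantile normalisation, and from the mean of the tissues it was -0.31, -0.13 and -0.17. Differences below are therefore best read beside the median over all genes, which was -0.27 against the mean of the tissues.

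A stricter group was higher in testis than in each of the 3 tissues taken singly, and held 1407 genes (13.3%). In 1397 of them the 3 testis samples lay above all 18 somatic samples, as they did for 1981 of all 10615 genes tested. A call against each tissue leaves little room for overlap, so these counts are no separate support. Their median log2 difference was 2.45, with 493 genes at 3 or more, 142 at 5 or more and 61 at 6 or more. The opposite group, lower in testis than in each tissue, held 687 genes (6.47%). Of these 675 showed no overlap, beside 1662 of all genes tested with every testis sample below every somatic sample. The group held 451 genes with median centring and 1481 without hypothalamus. Its median was -1.91, with 55 genes at -3 or less and 2 at -5 or less. Genes above the mean of the tissues were thus mostly above each tissue, 73.8% of them, whereas 26.4% of the genes below the mean were below each tissue. Of the genes lower than the mean, 239 were called against liver alone, 132 against kidney alone and 358 against hypothalamus alone. Genes known only by a placeholder name, such as Rik or Gm symbols, were 1.83% of the genes tested and 9.15% of those with a log2 difference of at least 5 above each tissue (13 of 142), but 0.437% of those lower than each tissue (3 of 687).

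**Figure D1:**
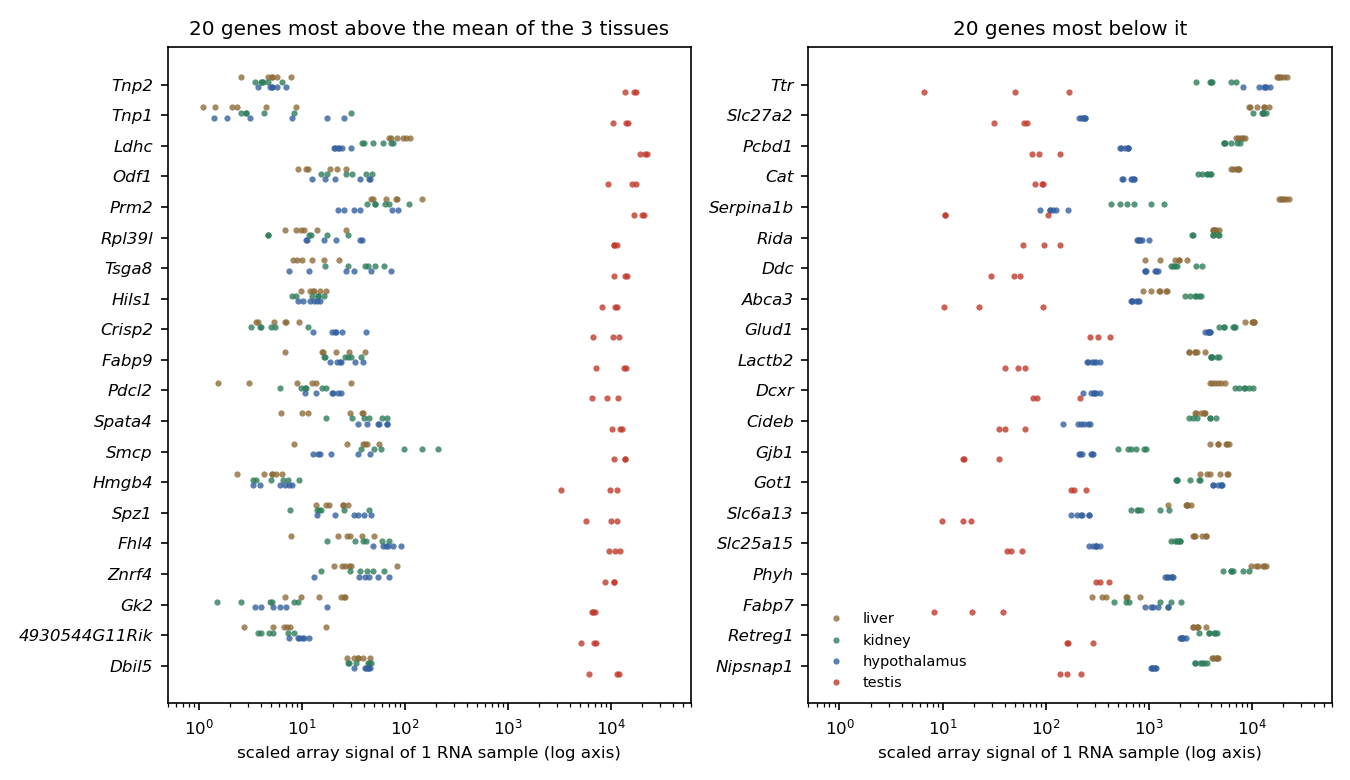
Signal of the genes with the highest and the lowest log2 differences in each RNA sample of testis, liver, kidney and hypothalamus (log axis, arbitrary units; 1 point per RNA sample, the mean of its 2 arrays). The 3 testis points of Tnp2 lie between 13589 and 17538, and every somatic point of that gene lies at or below 7.95.

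Other genes had differences as high as the 3 markers. Tnp1, the other transition protein, gave 14089, 14689 and 10384 in testis samples 1, 2 and 3 and at most 30.3 in any somatic sample, a log2 difference of 7.89 ± 0.13 (SE). Odf1, a protein of the outer dense fibres around the sperm axoneme, gave 17363, 16104 and 9325 against at most 47.7, a difference of 7.59 ± 0.16 (SE). Rpl39l, a copy of the ribosomal protein gene Rpl39, gave 11525, 10790 and 10827 against at most 38.8, a difference of 7.46 ± 0.11 (SE). Testis sample 3 was the lowest of the testis samples for Tnp1 and Odf1, and all 3 samples stood clear of the somatic tissues for each of these genes. Hils1, a linker histone of elongating spermatids, gave 11577, 11007 and 8112 and at most 17.3 elsewhere. Crisp2, a cysteine-rich protein of the acrosome and tail, gave 12000, 10554 and 6760 and at most 41.8 elsewhere. Their log2 differences were 7.38 and 7.34, with no overlap between testis and the other tissues. The remaining genes among the 20 highest were Tsga8 at 7.44, Fabp9, a fatty acid binding protein, at 7.28, Pdcl2 at 7.19, Spata4 at 7.12, Smcp, of the mitochondrial capsule of the sperm midpiece, at 7.10, Hmgb4, an HMG-box protein, at 7.07, Spz1, a basic helix-loop-helix factor, at 6.94, Fhl4 and Znrf4 at 6.90, Gk2, a glycerol kinase, at 6.88, 4930544G11Rik at 6.84 and Dbil5 at 6.79. For Hmgb4 the testis samples themselves were far apart, at 9824, 11399 and 3292.

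Promoters of 5 genes high in testis are shown with the matches they hold to short motifs. Whether these genes share a regulator was not tested. The sequences are RefSeq's (GRCm38.p6), from 250 bases before to 50 after a start of transcription, and 8564 of the genes tested matched that table by symbol. The motifs searched on both strands were TGACGTCA, the cAMP response element to which the spermatid activator CREM binds, its core TGACGT, which lies within the longer motif and so overlaps it, GTTGCNNNGNNAC, the X-box bound by RFX factors at genes of cilia, and TATAAA, the TATA box. Capitals below mark the matches. The 5 genes were chosen after their values and matches were seen. Prm2 (chr16:10792056-10792355, minus strand) has a match to TATAAA 31 bases before its start. That match is on the strand opposite to the gene, so it reads TTTATA below. Ldhc (chr7:46861013-46861312, plus strand, 1 of 2 starts) has TGACGT 61 and 47 bases before its start. The X-box lies 37 bases after the start of Meig1 (chr2:3419080-3419379, minus strand, 1 of 3 starts), 20 before that of Ropn1l (chr15:31453640-31453939, minus strand) and 29 before that of Tekt2 (chr4:126325639-126325938, minus strand, 1 of 3 starts).
Prm2: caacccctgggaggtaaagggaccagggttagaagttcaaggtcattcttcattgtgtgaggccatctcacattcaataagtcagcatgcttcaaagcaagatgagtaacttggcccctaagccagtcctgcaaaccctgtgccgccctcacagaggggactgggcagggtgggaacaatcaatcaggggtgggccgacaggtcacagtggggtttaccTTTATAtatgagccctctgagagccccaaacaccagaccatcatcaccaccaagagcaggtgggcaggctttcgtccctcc
Ldhc: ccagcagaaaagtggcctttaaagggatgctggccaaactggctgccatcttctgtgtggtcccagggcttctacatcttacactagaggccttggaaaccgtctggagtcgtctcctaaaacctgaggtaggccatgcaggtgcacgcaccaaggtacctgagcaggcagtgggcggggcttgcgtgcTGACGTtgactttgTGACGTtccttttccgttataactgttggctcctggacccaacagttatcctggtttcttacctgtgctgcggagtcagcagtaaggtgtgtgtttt
Meig1: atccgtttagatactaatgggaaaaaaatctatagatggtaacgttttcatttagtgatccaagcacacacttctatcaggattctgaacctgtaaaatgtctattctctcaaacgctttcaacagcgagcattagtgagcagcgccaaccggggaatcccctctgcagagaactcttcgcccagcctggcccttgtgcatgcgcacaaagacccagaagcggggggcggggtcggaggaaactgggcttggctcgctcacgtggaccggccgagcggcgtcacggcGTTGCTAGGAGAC
Ropn1l: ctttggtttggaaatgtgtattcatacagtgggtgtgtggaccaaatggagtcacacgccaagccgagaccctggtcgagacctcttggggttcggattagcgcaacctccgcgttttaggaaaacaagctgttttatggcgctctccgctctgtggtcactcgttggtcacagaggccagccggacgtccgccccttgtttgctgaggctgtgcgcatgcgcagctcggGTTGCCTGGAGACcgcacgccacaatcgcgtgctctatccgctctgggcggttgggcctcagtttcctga
Tekt2: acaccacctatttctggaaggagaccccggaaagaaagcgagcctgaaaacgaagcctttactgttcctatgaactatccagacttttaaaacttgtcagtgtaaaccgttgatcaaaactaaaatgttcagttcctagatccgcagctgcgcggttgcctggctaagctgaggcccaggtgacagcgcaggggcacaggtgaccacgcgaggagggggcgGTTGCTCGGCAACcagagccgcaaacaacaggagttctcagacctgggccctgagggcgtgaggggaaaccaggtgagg
The X-box was in 1.67% of all 27025 genes of the promoter table and in 1.58% of the genes tested here. It was in 3.77% of the genes higher in testis than in each tissue (44 of 1168), in 8.85% of those with a log2 difference of at least 5 (10 of 113) and in 1.08% of those lower than in each tissue (6 of 554). TGACGTCA was in 2.03% of the genes of the table, 3.20% of those tested, 4.79% of those above each tissue and 3.79% of those below. TGACGT was in 8.37%, 12.1%, 12.7% and 13.4% of the same groups, and TATAAA in 15.7%, 10.4%, 9.67% and 9.75%. In the genes with a log2 difference of at least 5, TGACGTCA was in 4.42%, TGACGT in 9.73% and TATAAA in 9.73%, so the share did not climb with the difference for these as it did for the X-box. These shares describe letters in a window and were not tested.

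The genes with an X-box shown above had high signals in testis. Ropn1l, a ropporin-like protein of the fibrous sheath, gave 12722, 13625 and 11245 in testis samples 1, 2 and 3. Its lowest, median and highest signals were 201, 237 and 278 for liver, 101, 116 and 137 for kidney, and 15.0, 21.8 and 48.5 for hypothalamus. The testis samples were close together and far above the rest, which were themselves ordered with liver highest and hypothalamus lowest, and the log2 difference was 6.37 ± 0.12 (SE). Meig1, needed for sperm tail assembly, gave 11240, 10570 and 6138 and at most 72.9 in a somatic sample, a difference of 6.75 ± 0.14 (SE). Tekt2, a tektin filament protein of the axoneme, gave 4055, 4554 and 3724 and at most 109 elsewhere, a difference of 5.71 ± 0.15 (SE). No somatic sample overlapped with testis for either gene. Rfx2, an RFX factor expressed in germ cells and ciliated cells, was itself higher, with 798, 1132 and 860 in testis and no more than 17.2 in any other sample, a difference of 3.98 ± 0.09 (SE). Crem, by contrast, was not called as measured by its brightest probe set: testis gave 201, 176 and 171, overlapping with hypothalamus (186 to 215) and below liver (319 to 472), and its log2 difference was -0.46.

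Genes of the germ cell were described by 11 lists that follow the path from spermatogonium to sperm. Of their 226 genes tested, 161 (71.2%) were higher in testis than in each tissue, 2 were lower than in each, and the median log2 difference was 3.09, beside -0.27 over all genes. All 28 lists together name 843 genes, of which 596 were tested and the others were either unmatched to a probe set of their own or too dim. A gene seen in testis alone passed that filter through the testis samples, so the counts and medians describe the members tested and are not support for a rule about all members. In bulk tissue more cells of a type and more RNA per cell cannot be told apart. Leaving out any testis sample in turn changed the number above each tissue by at most 1 gene in every one of these lists.

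All 5 transition proteins and protamines were above each tissue, with a median log2 difference of 7.54. Prm1, protamine 1, gave 21931, 20772 and 17431 in testis against at most 308 elsewhere, a difference of 6.56 ± 0.12 (SE). Prm3 gave 5256, 8186 and 3135 against at most 123, a difference of 5.50 ± 0.19 (SE). Of 7 testis histone variants and chromatin readers tested, 6 were above each tissue, and the median was 5.78.

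Among 20 meiotic chromosome proteins, 17 were above each tissue and none was below, with a median of 2.81. Sycp3, of the lateral element of the synaptonemal complex, gave 1824, 2436 and 1168 in testis, and its highest somatic sample was 96.1 in kidney. Stag3, the meiotic cohesin subunit, gave 2747, 2900 and 5280, and its highest somatic sample was 103 in hypothalamus. The testis groups stood apart for both, at log2 differences of 4.37 ± 0.16 (SE) and 5.28 ± 0.21 (SE), but sample 3 was the lowest of the testis samples for Sycp3 and the highest for Stag3. Sycp1, of the transverse filaments, varied most of these, with 713, 1040 and 193 in testis against at most 67.7 elsewhere, a difference of 2.59 ± 0.26 (SE). Spo11, which makes the breaks that start recombination, gave 1542, 1766 and 1186 against at most 130, a difference of 3.64 ± 0.15 (SE).

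Of 24 germ cell RNA pathway genes, 15 were above each tissue and 1 was below, with a median of 2.55. With quantile normalisation or without testis sample 1 none was below each tissue. Ddx4, the germ granule helicase, gave 2043, 2446 and 1875 in testis and at most 36.8 in a somatic sample, a log2 difference of 5.10 ± 0.13 (SE). Piwil1, a Piwi protein that carries piRNAs in spermatocytes and spermatids, gave 1097, 2230 and 1045 against at most 57.3, a difference of 4.25 ± 0.17 (SE). Ybx2, which binds stored messages, gave 11895, 12335 and 9999 against at most 328, a difference of 6.47 ± 0.17 (SE). Testis was separate from all other samples for these genes. The member below each tissue was Celf1, a broadly expressed splicing regulator, which gave 621, 1195 and 853 in testis and 1642 to 2988 in the somatic samples, a difference of -1.27 ± 0.14 (SE).

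Spermatogonial genes were the germ cell list with the lowest median, 0.45 over 19 genes tested, and 6 of them were above each tissue. Dmrt1 gave 218, 262 and 594 in testis and at most 58.3 elsewhere, a log2 difference of 2.13 ± 0.17 (SE). Stra8, which marks the entry into meiosis, gave 430, 254 and 219 against at most 145, a difference of 1.21 ± 0.19 (SE). Some genes used to mark spermatogonia were as high or higher in other tissues: Gfra1, a GDNF receptor, gave 91.7, 35.1 and 96.5 in testis and 124 to 1324 in the somatic samples, and its difference was -1.86 ± 0.18 (SE). Kit, the receptor of differentiating spermatogonia, gave 309, 416 and 398 in testis, overlapping with hypothalamus at 299 to 454, and Zbtb16 gave 191, 242 and 71.2, overlapping with all 3 tissues.

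Of 16 postmeiotic transcription factors, 11 were above each tissue, with a median of 2.52. Tcfl5, a helix-loop-helix factor of spermatocytes and spermatids, gave 4783, 6119 and 4378 in testis and at most 54.3 elsewhere, a log2 difference of 6.15 ± 0.15 (SE). Fhl5, the partner of CREM known as ACT, gave 7807, 5996 and 4717, and its difference was 6.11.

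Genes of the sperm tail formed the longest of these lists. Of 36 flagellum structure genes, 32 were above each tissue, 33 were above the mean and none was below it, with a median of 4.73. Akap4, the main protein of the fibrous sheath, gave 11074, 8876 and 9058 in testis and at most 120 elsewhere, a log2 difference of 6.29 ± 0.16 (SE). Rsph1, of the radial spokes, differed by 6.59. Of 12 sperm ion channels and motility signalling genes, 8 were above each tissue, with a median of 2.17. Catsper1, a pore subunit of the calcium channel of the sperm tail, gave 1941, 2386 and 791 in testis and at most 151 in a somatic sample, a difference of 3.39 ± 0.23 (SE). Catsper2 and Catsperg1, of the same channel, differed by 3.00 and 3.40. Prkaca, the catalytic subunit of protein kinase A, is used in every tissue and was not called, at 0.01 against the mean.

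Of 34 acrosome and sperm-egg interaction genes, 28 were above each tissue, with a median of 4.68. Acr, the acrosomal protease acrosin, gave 3778, 3787 and 4101 in testis and at most 299 elsewhere, a log2 difference of 4.0 ± 0.15 (SE). Adam3, a sperm surface protein, gave 4597, 4551 and 2486 against at most 21.6, a difference of 5.94 ± 0.13 (SE). Zpbp, which binds the zona pellucida, gave 4871, 6909 and 2748 against at most 70.2, a difference of 5.80 ± 0.17 (SE). The lowest testis sample of Adam3 and Zpbp was sample 3, and still far above every somatic sample.

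Of 29 testis forms of energy enzymes, 21 were above each tissue and 3 were below the mean, with a median of 3.82. Gapdhs, the glyceraldehyde phosphate dehydrogenase of the sperm tail, gave 10871, 10982 and 9324 in testis and at most 416 elsewhere, a log2 difference of 4.89 ± 0.15 (SE). Pgam2, a phosphoglycerate mutase also known from muscle, gave 9927, 9195 and 8604 in testis, 183 to 559 in kidney and at most 18.2 in liver and hypothalamus, a difference of 6.31 ± 0.16 (SE). Slc2a3, a glucose transporter of sperm and neurons, gave 10094, 12131 and 9901 in testis, 2875 to 3238 in hypothalamus, 192 to 271 in liver and 126 to 216 in kidney. Its differences from hypothalamus, liver and kidney were 1.77, 5.31 and 5.58. Of 29 testis chaperones and proteolysis genes, 17 were above each tissue, with a median of 1.62, and 1 was below each, or none without the liver and kidney samples numbered 1. Hspa1l, an HSP70 of spermatids, gave 4162, 4749 and 2543 and at most 15.9 elsewhere, a difference of 6.11 ± 0.12 (SE). Hspa2, the HSP70 of spermatocytes, gave 4399, 5335 and 6591, and its somatic samples reached 623 in hypothalamus, a difference of 4.03 ± 0.27 (SE).

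**Figure D2:**
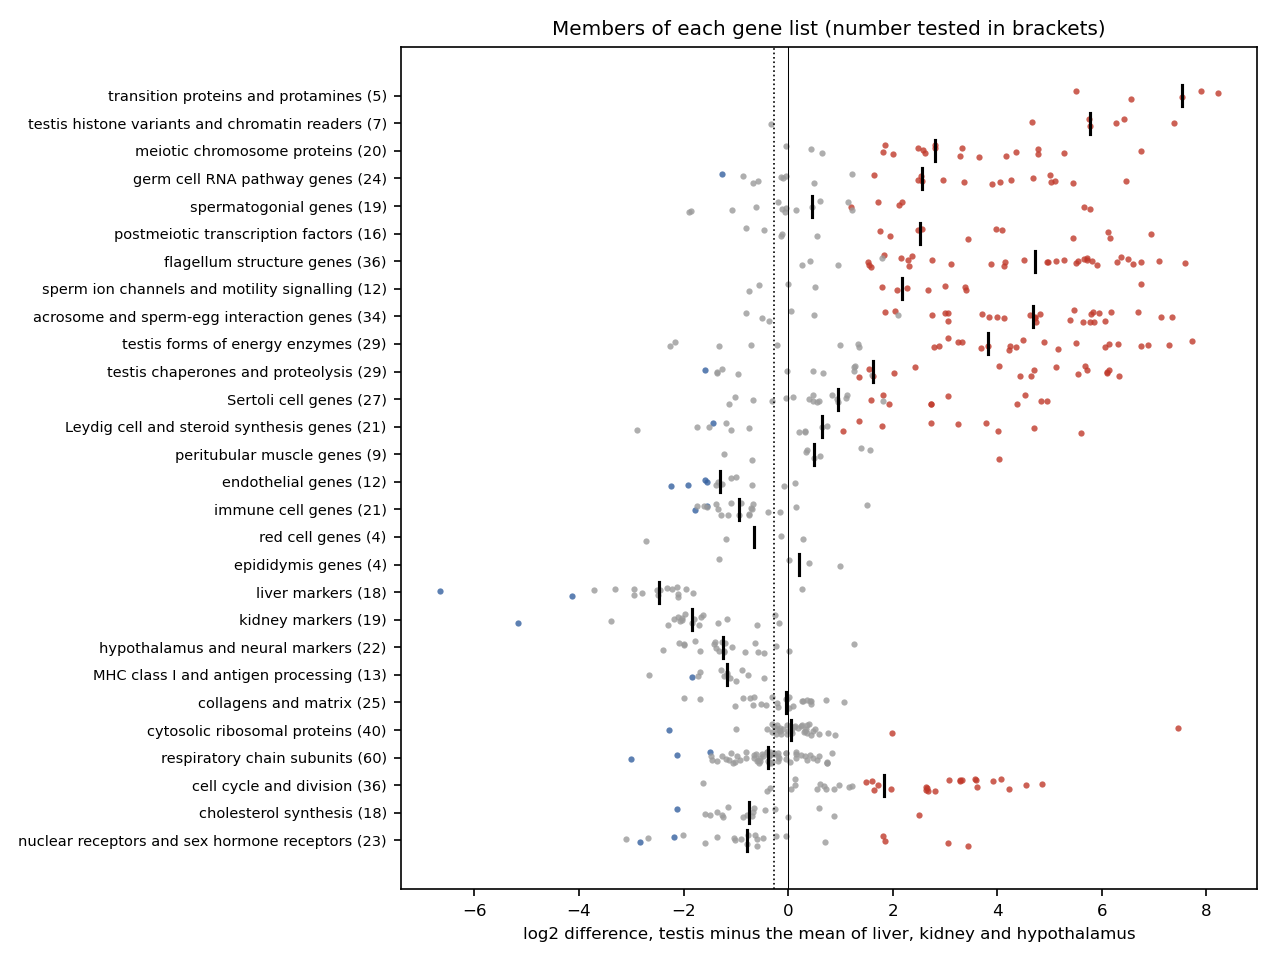
Log2 difference of testis from the mean of liver, kidney and hypothalamus for the members of each gene list (1 point per gene tested, bar at the list's median). Medians run from 7.54 for the transition proteins and protamines to -2.47 for the liver markers, and the median over all genes was -0.27.

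Genes of the somatic cells of the testis were higher in part. Of 27 Sertoli cell genes, 10 were above each tissue, 13 were above the mean and 2 below it, with a median of 0.95; without testis sample 1 none was below, and without sample 2 it was 1. Inha, the inhibin alpha subunit, gave 3221, 2892 and 2572 in testis, against 301 to 604 in liver, 198 to 325 in kidney and 560 to 682 in hypothalamus, a log2 difference of 2.74 ± 0.13 (SE). Cst12, a cystatin, gave 5671, 4907 and 1217 against at most 86.0, a difference of 4.96 ± 0.26 (SE). Wt1, a zinc finger factor, gave 238, 332 and 369 against at most 96.3, a difference of 1.94 ± 0.15 (SE). Sox9, a factor that sets the Sertoli fate, was not called: it gave 78.6, 70.8 and 105 in testis, and 150 to 196 in hypothalamus. Fshr, the receptor for follicle stimulating hormone, gave 233, 160 and 274 and overlapped with kidney (88.3 to 195) and hypothalamus (134 to 196).

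Of 21 Leydig cell and steroid synthesis genes, 9 were above each tissue, 6 were below the mean and the median was 0.64; without hypothalamus among the somatic tissues that median was -0.15. Cyp17a1, which turns progestins into androgens, gave 4799, 4280 and 8735 in testis. Its lowest, median and highest signals were 64.9, 124 and 281 for liver, 19.6, 45.9 and 79.6 for kidney, and 26.1, 44.7 and 89.3 for hypothalamus. Testis sample 3 was the highest of all, and the log2 difference was 5.60 ± 0.23 (SE). Cyp11a1, which cleaves the side chain of cholesterol, gave 1147, 846 and 2039 against at most 460, that sample being from liver, a difference of 4.02 ± 0.38 (SE). Star, which brings cholesterol into mitochondria, gave 437, 542 and 773 against at most 380, a difference of 1.35 ± 0.16 (SE). Of the members below the mean, Hsd11b1, which is abundant in liver, differed by -2.89. Among 9 peritubular muscle genes 1 (11.1%) was above each tissue, no larger a share than the 13.3% of all genes. It was Actg2, a smooth muscle actin, with 2293, 2356 and 1562 in testis and at most 113 elsewhere, a difference of 4.03 ± 0.15 (SE).

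Endothelial genes were mostly lower in testis, and immune cell genes were lower mainly against liver. Of 12 endothelial genes, 4 were below each tissue and 9 below the mean, with a median log2 difference of -1.30; with median centring or quantile normalisation 1 of them was below each tissue. Pecam1, of endothelial junctions, gave 109, 49.0 and 115 in testis and 209 to 571 in the somatic samples, a difference of -1.59 ± 0.14 (SE). Flt1, a VEGF receptor, gave 28.9, 13.6 and 6.05 against 98.4 to 423, a difference of -2.25 ± 0.11 (SE). Of 21 immune cell genes, 10 were below the mean and 1 was above it, with a median of -0.94. Against liver alone 19 of the 21 were lower, against kidney 7 were lower and 2 higher, and against hypothalamus 2 were lower and 2 higher, with a median of -0.28 beside -0.20 over all genes. The liver and kidney samples numbered 1, in both sexes, were low for MHC class II genes: H2-Eb1 gave 1238 to 2053 in those 4 samples and 5237 to 9661 in the other liver and kidney samples. Without those samples 13 immune cell genes were below the mean, with a median of -1.28. Csf1r, the macrophage growth factor receptor, gave 912, 834 and 1571 in testis and 1904 to 8726 elsewhere, a difference of -1.78 ± 0.19 (SE). The member above the mean was Fcgr3, an Fc receptor, at 805, 813 and 790 in testis against 115 to 593, a difference of 1.51 ± 0.17 (SE). Of 4 red cell genes 2 were below the mean. Of 4 genes of the epididymis, the duct beside the testis, 1 was below the mean and none above, with a median of 0.21. Over all genes 24.5% were below the mean, so 1 of 4 is about that share. Without testis sample 2 the median was -0.15 and 1 gene was above, and without sample 3 also 1 was above.

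Markers of the compared tissues were nearly all lower in testis than in their own tissue, as a check on the labels. Against that tissue 18 of 18 liver markers, 18 of 19 kidney markers and 21 of 22 hypothalamus and neural markers were lower. Of 18 liver markers 17 were below the mean, of 19 kidney markers 16 and of 22 hypothalamus and neural markers 15, with medians of -2.47, -1.84 and -1.25, the last of which was 0.30 when hypothalamus was left out. Above the mean was 1 of the hypothalamus and neural markers. Apoa1, an apolipoprotein made by liver, gave 76.7, 37.8 and 28.3 in testis and 20449 to 25965 in liver. Umod, uromodulin of the kidney tubule, gave 111, 23.9 and 42.8 in testis and 9124 to 11806 in kidney. Snap25, of nerve terminals, gave 8.85, 13.4 and 6.30 in testis and 7407 to 8310 in hypothalamus. Summed over the 18 liver markers, testis samples 1, 2 and 3 gave 4903, 3050 and 1856, below kidney at 8921 to 22600 and hypothalamus at 10250 to 16740 and far below liver at 289000 to 332800.

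Among the genes lower in testis than in each tissue, Ttr had the lowest difference. This carrier of thyroid hormone, made in liver and choroid plexus, gave 167, 50.9 and 6.60 in testis samples 1, 2 and 3. Its lowest, median and highest signals were 17595, 18774 and 21956 for liver, 2851, 4065 and 6956 for kidney, and 8286, 13329 and 15021 for hypothalamus. Testis was below every other sample, with sample 1 the highest of the 3, and the log2 difference was -6.65 ± 0.25 (SE, adjusted p = 2.37e-15). Slc27a2, a fatty acid transporter and very long chain acyl-CoA synthetase, gave 65.7, 62.2 and 31.3 in testis. Its lowest, median and highest signals were 9373, 12161 and 14727 for liver, 10173, 12848 and 13885 for kidney, and 209, 231 and 243 for hypothalamus. Here too testis lay below all samples, and the difference was -5.16 ± 0.12 (SE, adjusted p = 1.91e-18). Cat, catalase, the peroxisomal enzyme that removes hydrogen peroxide, gave 79.2, 94.7 and 92.8 against 557 to 7485 elsewhere, a difference of -4.27 ± 0.11 (SE). Glud1, mitochondrial glutamate dehydrogenase, gave 268, 320 and 422 against 3542 to 10555, a difference of -4.01 ± 0.10 (SE). Got1, the cytosolic aspartate aminotransferase, gave 177, 189 and 249 against 1849 to 5817, a difference of -3.88 ± 0.18 (SE). All 3 enzymes were lower than in each tissue with no overlap. Others among the 20 lowest were Pcbd1 at -4.46, Serpina1b at -4.13, Rida and Ddc at -4.11, Abca3 at -4.08, Gjb1 at -3.90 and Nipsnap1 at -3.55.

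Genes of general cell processes went in both directions. Of 36 cell cycle and division genes, 22 were above each tissue and 1 was below the mean, with a median log2 difference of 1.84. Aurka, the spindle pole kinase, gave 1990, 1753 and 4820 in testis and 88.3 to 167 elsewhere, a difference of 3.92 ± 0.20 (SE). Bub1, of the spindle checkpoint, gave 1196, 993 and 2015 against at most 26.8, a difference of 4.56 ± 0.14 (SE). Ccna1, the cyclin A of male meiosis, gave 1726, 1742 and 3146 against at most 117, a difference of 4.23 ± 0.20 (SE). For all 3 of these genes testis sample 3 was the highest, and the other two testis samples were also clear of the somatic tissues. The member below the mean was Ccnd1, cyclin D1, at 529, 482 and 444 in testis against 564 to 5382, a difference of -1.64 ± 0.18 (SE).

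Of 60 respiratory chain subunits, none was above the mean and 12 were below it, with a median of -0.38 beside -0.27 over all genes. These 12 are no larger a share than the 24.5% of all genes below the mean. Below each tissue were 3 of the 60, again no larger a share than the 6.47% of all genes in the main setting. The 3 became 7 with quantile normalisation, 6 without testis sample 3 and 2 without sample 2. Over all 10615 genes the count was 517, 754 and 642 in those settings. The share of the 60 was thus the larger with quantile normalisation and without sample 3. The 12 became 8 with median centring and 7 without testis sample 2. Ndufa4 gave 917, 733 and 652 in testis against 4607 to 8232, a log2 difference of -3.01 ± 0.10 (SE). Of 40 cytosolic ribosomal proteins, 2 were above the mean and 2 below, smaller shares than the 18.0% and 24.5% of all genes. The median was 0.06, and without testis sample 2, 1 was below. Rps4x, which is X-linked, gave 1167, 838 and 3010 in testis against 5221 to 10847, a difference of -2.27 ± 0.21 (SE), and Rps25 gave 804, 687 and 855 against 111 to 271, a difference of 1.99 ± 0.10 (SE). Of 18 cholesterol synthesis genes, 7 were below the mean and 1 was above, beside 24.5% and 18.0% of all genes. The median was -0.74, and without testis sample 2, 2 were above. Hmgcs1, which makes HMG-CoA, gave 969, 1124 and 1053 against 2213 to 8847, a difference of -2.13 ± 0.25 (SE). Fdft1, squalene synthase, went the other way, with 5941, 6011 and 3750 in testis against 230 to 2326, a difference of 2.50 ± 0.19 (SE).

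Of 13 genes of MHC class I and antigen processing, 9 were below the mean and none was above, with a median of -1.17. With median centring 6 were below the mean. Without the liver and kidney samples numbered 1 it was 11, with a median of -1.46. Against liver alone 12 of the 13 were lower, and against kidney 10. Against hypothalamus 1 was lower, with a median of -0.32 beside -0.20 over all genes. B2m, the light chain of class I molecules, gave 4558, 4532 and 7638 in testis against 6247 to 19295, a log2 difference of -1.16 ± 0.16 (SE), and testis sample 3 overlapped with hypothalamus. Psmb10, an immunoproteasome subunit, gave 397, 389 and 393 against 567 to 3653, a difference of -1.85 ± 0.36 (SE). Of 25 collagens and matrix genes, 3 were below the mean and 1 was above, smaller shares than the 24.5% and 18.0% of all genes. The median was -0.04, and 0.15 with median centring. Without testis sample 1 none was above, and the 3 below became 2 without sample 1 or 2. Of 23 nuclear receptors and sex hormone receptors, 4 (17.4%) were above each tissue, beside 13.3% of all genes. Below the mean were 9, beside 24.5% of all genes, and the median was -0.78. Nr6a1, germ cell nuclear factor, gave 1603, 2139 and 788 in testis against at most 144, a difference of 3.44 ± 0.20 (SE). Nr0b1, known as DAX1, gave 509, 494 and 557 against at most 38.1, a difference of 3.06 ± 0.12 (SE). Nr3c1, the glucocorticoid receptor, and Nr1d2, of the clock, differed by -2.83 and -2.19.

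Many proteins have a testis form and a form used in other cells. Of 44 such pairs listed, 31 had both forms tested, with Ldhc in more than a single pair. Of 30 testis forms 28 were above each tissue, and of 31 somatic forms 4 were above each tissue, 13 were below the mean and 8 were below each tissue, with medians of 4.66 and -0.31. The exceptions among the testis forms were Cstf2t, at -0.14, and Ppp3cc, at 0.52.

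Pgk2, the phosphoglycerate kinase of spermatids, is a retrogene of the X-linked Pgk1. Its signals were 7922, 7288 and 4111 in testis and at most 24.3 elsewhere, a log2 difference of 6.74 ± 0.14 (SE). Pgk1 gave 659, 594 and 1178 in testis and lowest, median and highest signals of 6937, 8878 and 11441 for liver, 7940, 9861 and 11357 for kidney, and 6492, 7064 and 8264 for hypothalamus. Its difference was -3.36 ± 0.17 (SE), so testis was highest for Pgk2 and lowest for Pgk1 without overlap. Pdha2, the testis E1 alpha subunit of pyruvate dehydrogenase, gave 3348, 3162 and 5148 against at most 10.2, a difference of 6.14 ± 0.11 (SE). Its X-linked parent Pdha1 gave 407, 428 and 345 in testis and 2611 to 8384 elsewhere, a difference of -3.40 ± 0.09 (SE). Among 6 measured pairs of a retrogene and its X-linked parent, 5 parents were below the mean and 2 were below each tissue, with medians of 4.84 for the retrogenes and -1.58 for the parents. For the parent Cstf2, at -1.25, this holds for its brightest probe set, and another was called higher, at 1.22. Rpl39l and its parent Rpl39 were the case without a lower parent, at 7.46 and -0.15.

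Among the 25 pairs of other relatives, 8 somatic forms were above the mean of the tissues and 8 were below, with a median of 0.03. Some of these pairs held opposite differences. Cox6b2, a testis subunit of cytochrome oxidase, differed by 5.50 and Cox6b1 by -2.31, with 1470, 1241 and 1910 for Cox6b1 in testis against 5776 to 11332 elsewhere. Cox8c and Cox8a differed by 3.70 and -2.12. Clgn, the testis chaperone calmegin, differed by 5.63 and Canx, calnexin, by -1.48. Of the cohesin pairs, Stag3 differed by 5.28 and X-linked Stag2 by -1.91, with 241, 222 and 202 for Stag2 in testis against 740 to 1297 elsewhere. Smc1b gave 778, 1009 and 357 in testis against at most 138 and differed by 3.32, while X-linked Smc1a gave 332, 240 and 333 against 616 to 1210 and differed by -1.48. The somatic forms above each tissue were Tbp, the TATA-binding protein, at 2.55, Hspa4 at 2.02, Pabpc1, which binds poly(A) tails, at 1.93 and Capza1, a capping subunit, at 1.74. For Hspa4 this holds for its brightest probe set, and 2 others were called lower.

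**Figure D3:**
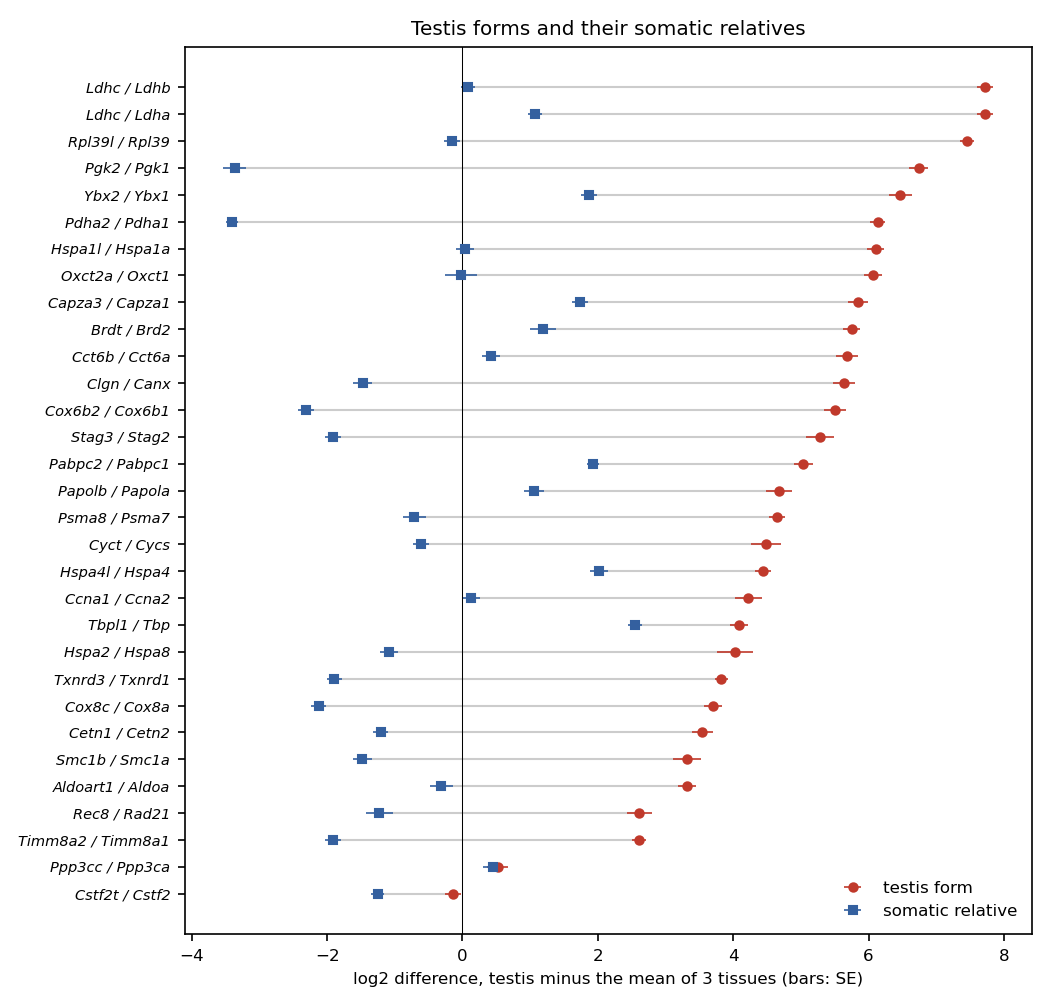
Log2 difference of testis from the mean of the 3 tissues for the testis form and the somatic form of each pair (1 line per pair). The median was 4.66 over the 30 testis forms and -0.31 over the 31 somatic forms.

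Genes of the X chromosome were more often lower in testis. Of 322 X-linked genes tested, 55 (17.1%) were lower than in each tissue, beside 631 of 10272 autosomal genes (6.14%), and the autosomes ranged from 3.90% on chromosome 9 to 9.12% on chromosome 13. The X-linked share was 16.8%, 15.5% and 18.3% without testis samples 1, 2 and 3 and 15.8% against male tissues alone, where autosomes gave 6.02%. With median centring it was 8.70% beside 4.11% on autosomes, with quantile normalisation 11.2% beside 4.67%, and without hypothalamus, where fewer tissues had to be passed, 24.5% beside 14.3%. X-linked genes higher than in each tissue were 31 (9.63%), in all 3 scalings, beside 1374 autosomal genes (13.4%, from 10.4% on chromosome 12 to 16.4% on chromosome 17). The median log2 difference was -0.69 on the X and -0.25 on the autosomes. These chromosome shares are a description, since genes are not independent replicates.

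**Figure D4:**
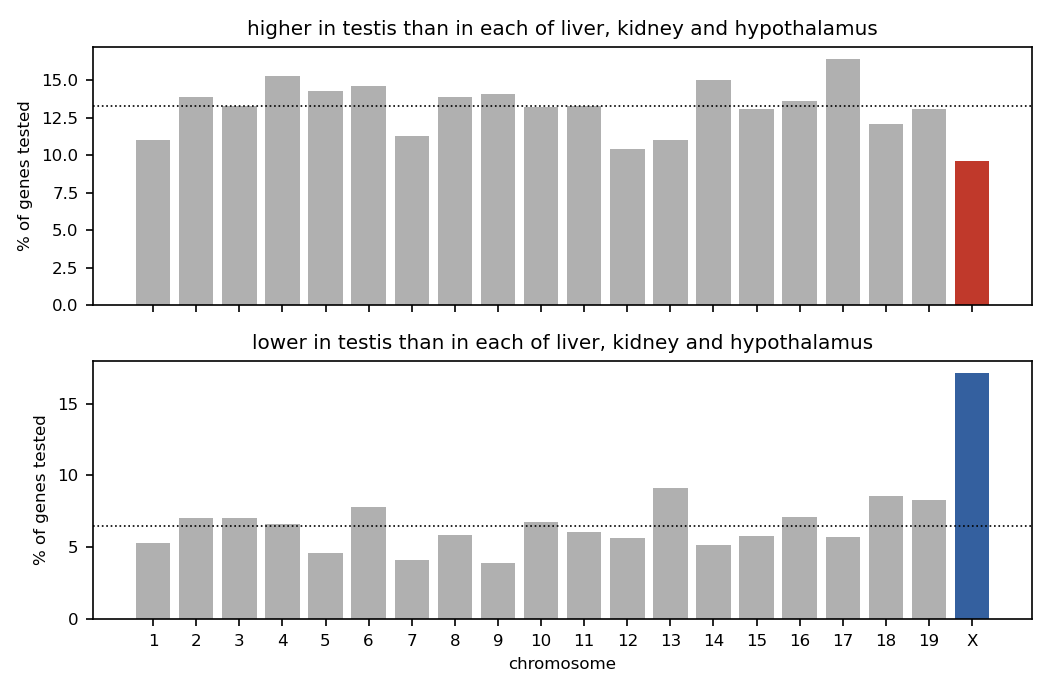
Share of the genes tested on each chromosome that were higher (upper plot) or lower (lower plot) in testis than in each of the 3 tissues, in percent; the dotted line is the share over all genes. The X chromosome stands at 9.63% and 17.1%, and the autosomes lie between 10.4% and 16.4% and between 3.90% and 9.12%.

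The lowest differences on the X were those of Gjb1, a connexin abundant in liver, at -3.90, Pdha1 at -3.40, Pgk1 at -3.36, Rnf128, a ubiquitin ligase, at -2.82 and Dynlt3, a dynein light chain, at -2.63. Eif2s3x, a subunit of translation factor eIF2, gave 325, 324 and 347 in testis and 1371 to 3678 elsewhere, a log2 difference of -2.61 ± 0.11 (SE). Ddx3x, an RNA helicase, gave 465, 565 and 498 against 1769 to 3615, a difference of -2.34 ± 0.12 (SE). Ogt, which attaches N-acetylglucosamine to proteins, gave 178, 206 and 128 against 347 to 2333, a difference of -2.12 ± 0.24 (SE). Testis was below all somatic samples for each. At the other end of the X-linked genes, Tsga8 gave 14437, 13718 and 10625 in testis and at most 73.4 elsewhere, Cypt1 gave 7078, 6305 and 4673 and at most 49.1, and H2ap, a histone H2A relative, gave 5632, 5327 and 2409 and at most 78.0. Their log2 differences were 7.44, 6.52 and 5.41, and Akap4 at 6.29 stood between them. Rhox5, the homeobox gene of Sertoli cells, gave 818, 799 and 815 against at most 107, a difference of 3.06 ± 0.20 (SE). None of the 20 meiotic chromosome genes tested is X-linked. Of the genes in the postmeiotic lists, 3 were X-linked, of which Akap4 and Taf7l were above each tissue, and 135 were autosomal, of which 108 were above each tissue. Of 6 Y-linked genes tested, Uba1y was above each tissue at 1.5 and Eif2s3y was above the mean at 1.10. Only part of the somatic samples in this comparison came from males. Eif2s3y gave 202, 273 and 156 in testis, and its highest signals were 347 for liver, 225 for kidney and 194 for hypothalamus. Testis thus overlapped with each tissue, and the call for Eif2s3y does not show a higher level in testis than in male tissue.

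Some genes were at the same level in testis and 1 somatic tissue. Prdx4, a peroxiredoxin of the secretory pathway, gave 6026, 4863 and 4977 in testis and 4829 to 5715 in liver, 1371 to 2158 in kidney and 677 to 928 in hypothalamus. Its log2 difference from liver was 0.00, and from kidney and hypothalamus 1.49 and 2.59. Ldha, the muscle type lactate dehydrogenase subunit, gave 11783, 10979 and 9240 in testis and overlapped with liver at 9012 to 11870, while hypothalamus lay at 1525 to 1976. Fbp1, the gluconeogenic fructose bisphosphatase, gave 13061, 11163 and 9449, overlapping with kidney at 11144 to 14033, below liver at 15358 to 18430 and far above hypothalamus at 172 to 237. Lpar3, a receptor for lysophosphatidic acid, gave 472, 348 and 627 in testis and 366 to 589 in kidney, with at most 12.1 in liver and 51.1 in hypothalamus. Morn4 gave 1048, 988 and 925 in testis and 850 to 977 in hypothalamus, and Lrrc49 gave 218, 280 and 499 and 296 to 370, with both lower in liver and kidney. These genes were picked for a call above the mean of the tissues with a small difference from 1 tissue, so the likeness is a description. Ldha and Fbp1 also differed little from another tissue, Ldha by 0.63 from kidney and Fbp1 by -0.54 from liver.

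The 3 testis samples differed among themselves by a median log2 range of 0.47 over all genes and 0.54 over the genes above each tissue, of which 251 had a range above 1. By median, sample 3 was lower for most germ cell lists and higher for Sertoli, Leydig and dividing cell genes. Its median deviation from the testis mean was -0.34 for acrosome genes, -0.26 for meiotic genes and -0.23 for the transition proteins and protamines. For flagellum genes it was -0.18, yet 13 of 36 were highest in sample 3. For spermatogonial and germ cell RNA pathway genes it was 0.01 and 0.04. It was 0.22 for Sertoli cell genes, of which 18 of 27 were highest in sample 3, 0.16 for Leydig cell genes (14 of 21) and 0.12 for cell cycle genes (23 of 36). Sample 1 was the highest for all 18 liver markers, with a median deviation of 0.49, and for 13 of 19 kidney markers, with a median deviation of 0.24. The part that these differences between the samples have in the other results was not tested.

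**Figure D5:**
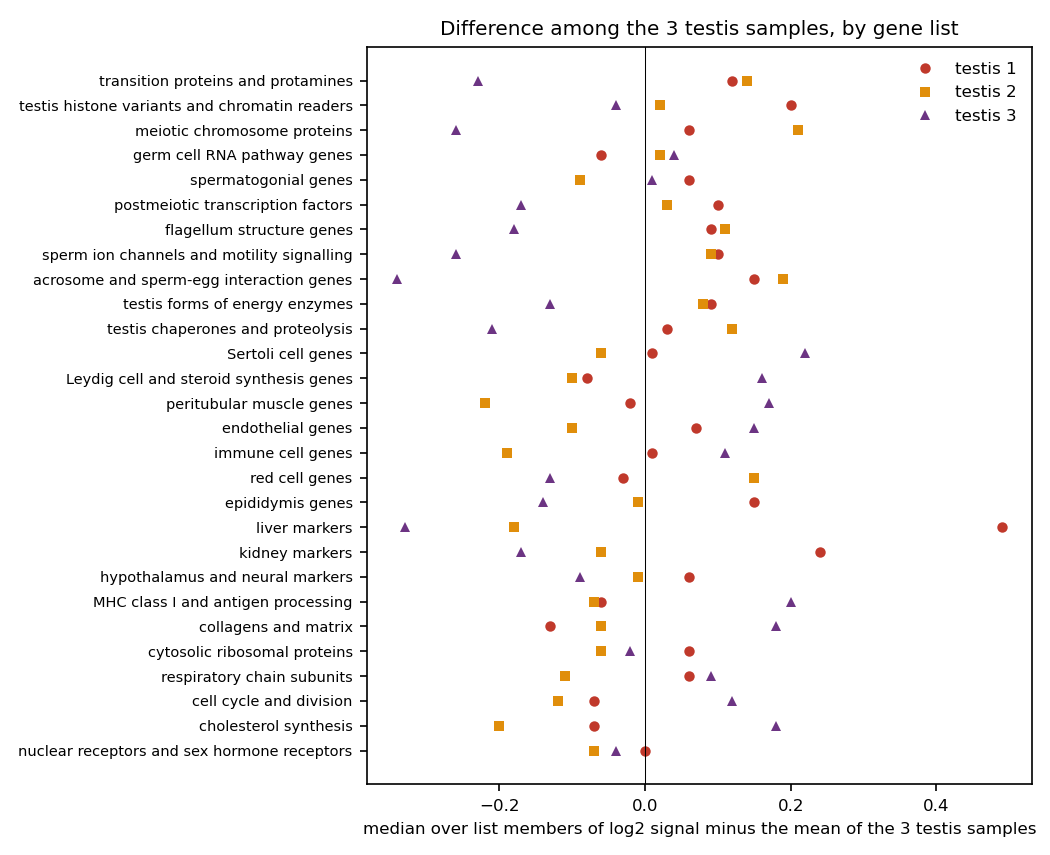
Median over each gene list of the log2 signal in testis samples 1, 2 and 3 minus the mean of the 3 samples. Sample 3 lies lowest for acrosome genes (-0.34) and highest for Sertoli cell genes (0.22), and sample 1 lies highest for liver markers (0.49).

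For 85 genes, at least 1 probe set was called higher and at least 1 lower in testis, so the direction given for such a gene depends on the probe set used. Fem1b had probe sets at 4.51 and -1.38, Dcun1d1 at 4.07 and -1.25, Chn2, a Rac-GAP, at 3.96 and -1.95, Klf9, a zinc finger factor, at 2.02 and -2.16, and Glul, glutamine synthetase, at 1.98 and -1.66. Klf9 had 2 probe sets called higher and 3 called lower. Hspa4, named above at 2.02, had 3 probe sets, of which 1 was called higher and 2 lower, the lowest at -1.5. Cstf2 had probe sets at 1.22 and -1.25.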

How the data were processed

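The authors deposited 1 value per probe set and array, on a linear intensity scale, for 22690 Affymetrix probe sets on 48 arrays; how these intensities were computed from the scans is not given in the sources used here. Each array was first brought to the same 2% trimmed mean (as deposited, 500.11 to 500.23), the 2 arrays of each RNA sample were averaged on log2, and 48.3, the 20th percentile of all values, was added before log2. After 64 control probe sets were left out, 17859 of 22626 probe sets passed the filter (above the 40th percentile of the array in at least 3 RNA samples) and 4767 did not. The 21 samples of testis, liver, kidney and hypothalamus were fitted in limma 3.58.1 (R 4.3.3) with 7 terms for tissue and sex; p-values were adjusted by Benjamini-Hochberg over all probe sets tested, and the fit was tested on simulated data. Ovary was left out. A call needed an adjusted p below 0.05 and a log2 difference of at least 1. Precision is limited by how many RNA samples there are, 3 for testis, since the 2 arrays of each were averaged before the fit. Arrays have no read depth.

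Genes came from the platform annotation: 20380 probe sets had 1 symbol, 691 several and 1555 none, and 20351 were matched through their Entrez identifier to current symbols. A gene was represented by its brightest tested probe set, so of 12393 genes with their own symbol 10615 were tested and 1778 were not. Promoters are RefSeq's (GRCm38.p6). Further processing used Python 3.11.15.

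The samples, gene lists and tests were chosen with earlier results of these data known. Named genes were the 20 highest and 20 lowest among those called alike against each tissue, up to 6 members of each list with the largest differences, the first 4 of each list, members whose probe sets disagree, pairs with both forms tested, and the 10 genes per tissue most alike between testis and that tissue. Outside that rule, and after their values were seen, Ccnd1, Celf1, Prkaca, Slc2a3, Spo11, Tekt2, the X-linked and Y-linked genes and those with opposite probe sets were named. Alternatives changed the pseudocount, scaling, filter, arrays, terms, somatic samples, variance trend and replicates.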

Additional observations from a re-analysis of the deposited data

Results flagged for a closer look

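Rpl39l, which was at 11050 on average in testis and at most 38.8 in any liver, kidney or hypothalamus sample, gave a mean signal of 112 ± 13.0 (SD, n = 3) in ovary, a tissue that the comparison did not use. The ovary samples ranged from 97.7 to 123 and lay above every somatic sample. The difference was not tested.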

How the results depend on the processing

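Leaving out each sample in turn gave 4430 to 4582 genes differing from the mean of the tissues, 4482 to 4610 from liver, 4412 to 4549 from kidney and 4644 to 4710 from hypothalamus, with 1397 to 1419 above each tissue and 642 to 754 below each. The other alternatives gave 3199 to 5053, 3393 to 5041, 3282 to 4946, 3494 to 5100 and 1181 to 1777. The 687 genes below each tissue became 329 with 4 times the pseudocount and 451 with median centring, all among the 687, and 1481 without hypothalamus, which held 686 of them; with fewer tissues to pass, that last count is larger by construction, and the cause of the other shifts was not tested. Without hypothalamus 3 named genes changed sign: Avp to 0.15 (adjusted p = 0.376), Fbp1 to -0.38 (adjusted p = 0.00916) and Mbp to 0.30 (adjusted p = 0.0212). Over 315 named genes, 10817 values kept direction and call, 154 lost the call and 39 gained it. Leaving out the liver and kidney samples numbered 1, chosen after seeing the data, gave 4505, 4591, 4483 and 4661 genes, 1406 above each and 681 below.

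Whether equal replicate numbers pair testis with somatic samples is not settled: of 18 such pairs 7 had a correlation of deviations over 0.1, with all 3 pairs over 0.1 for female liver alone (0.10 to 0.14), 0.08 to 0.21 for male kidney and -0.15 to 0.03 for female hypothalamus. Equal numbers of liver and kidney went together, at 0.13 to 0.59 over their groups, so not every pair passed and the samples were not treated as paired. With the replicate block the counts were 4505, 4521, 4469, 4657, 1407 and 687, against 4505, 4520, 4465, 4657, 1407 and 687. Dim probes limit what can be read, since no level below 48.3 was told apart from background.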

Other observations

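Some genes of germ cells and supporting cells were also strong in brain. Of the genes higher in testis than in the mean of the tissues, 251 missed the call against hypothalamus alone, 103 against kidney alone and 71 against liver alone. The contrast with hypothalamus depends on the scaling, with a median over all probe sets of -0.29 in the main scaling and 0.13 with median centring. How far this, or the type of RNA, enters the 251 was not tested. Uchl1, a ubiquitin hydrolase of spermatogonia and neurons, gave 732, 691 and 919 in testis, 4414 to 4984 in hypothalamus, 30.4 to 70.0 in liver and 47.6 to 102 in kidney. Cldn11, a claudin of Sertoli cell and myelin junctions, gave 489, 591 and 797 in testis, 1036 to 1344 in hypothalamus and at most 42.4 in the other tissues. Id4, a factor of spermatogonial stem cells and neural progenitors, gave 1711, 2048 and 1331 in testis and 2028 to 2450 in hypothalamus, and its kidney samples spread from 465 to 2105. Testis was below hypothalamus and above liver for all 3 genes, except that testis sample 2 overlapped with hypothalamus for Id4.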
